A study of Homo sapiens with 19 samples.

Results

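The first 2000 positions of 28S ribosomal RNA (rRNA), the long RNA of the large ribosomal subunit, were examined for ribose methylation in all 19 libraries of the study. They were taken by position alone and make up 2000 of the 5021 positions of 28S rRNA and of the 7000 rRNA positions measured. The authors' list of 120 methylation sites has 71 in 28S rRNA, and 15 of these lie in the stretch. All cells were Kasumi-1, an established acute myeloid leukaemia line. Fibrillarin (FBL) knockdown (KD) cells and their control KD cells, all treated with doxycycline at 100 ng/ml, were profiled without re-expression and with an empty vector, and FBL KD cells also with re-expressed wild-type FBL, FBLTri or FBLQua, with 2 libraries in each of these 7 groups. The other 5 libraries, whose treatment label reads no, were a control clone, the SNORD127 knockout clones C1 and C34, and C1 carrying SNORD127 again or only the empty vector. Separate cultures are not named for the replicates, so p-values reflect only how these libraries scatter, which can be technical. The 2 clones are the only knockout lines, and the labels do not say which residues FBLTri and FBLQua change. FBL RNA cannot be checked from rRNA counts.

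Fibrillarin is the enzyme in box C/D small nucleolar particles. In each particle a guide RNA (a SNORD) pairs with rRNA and places a chosen nucleotide in the enzyme's active site, where a methyl group is put on the ribose. Most human SNORDs lie in introns of host genes, many of them genes for ribosomal proteins or for long noncoding RNAs, and are released after splicing. A methylated ribose resists alkaline cleavage, so RiboMethSeq finds few fragment ends next to it. Score C is 1 minus the end count at the site divided by that of its flanks, from 0 for no protection to 1 for full protection. The relative end count is that ratio itself, so a score of 0.99 is a relative end count of 1%.

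Of the 15 sites 12 have a named SNORD guide in the authors' annotation, and 3 have only a predicted or an unknown one. Matched by name to the GRCh38.p14 RefSeq gene table, guides lie in genes for ribosomal proteins (SNORD21 in RPL5, SNORD18A, B and C in RPL4, SNORD32A in RPL13A, SNORD73A in RPS3A), for translation factors (SNORD2 in EIF4A2, SNORD51 in EEF1B2) and in the noncoding genes GAS5 (SNORD77, 80 and 81), SNHG1 (SNORD26), SNHG25 (SNORD104) and SNHG32 (SNORD48). SNORD80 is listed for both 28S-Am1521 and 28S-Gm1612. The pairs 28S-Am389 and 28S-Am391 and 28S-Gm1509 and 28S-Am1511 lie so close that each site sits in the flanks of its neighbour, so their scores share counts.

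End counts were uneven along the stretch. In 8 neighbouring bins of 100 nucleotides, up to position 1200, the median over the control KD libraries was 1.27 to 6.03 counts per position for each 1000000 counts of the library. The other 12 bins had 15.2 to 1399. Only 28S-1029 of the listed sites lies in the thin bins. Totals per library ran from 5533150 to 18835537 end counts, and the stretch took 15.9% to 43.0% of them, lowest in FBL KD replicate 2 and highest in control KD with empty vector replicate 2. This share was 24.1% ± 7.96 (SD, n = 4) in FBL KD and 31.7% ± 8.85 (SD, n = 4) in control KD (two-sided exact permutation test, p = 0.2). The 4 libraries without re-expression were the shallowest, with a median of 19 to 88 counts per position in the stretch against 90 to 204 in the others. Mean flanking counts per site and library were 10.3 to 10393 with a median of 728, and the half-width of the 95% counting interval was 0.0192 in the median and 0.394 at most, at 28S-1029.

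**Figure D1:**
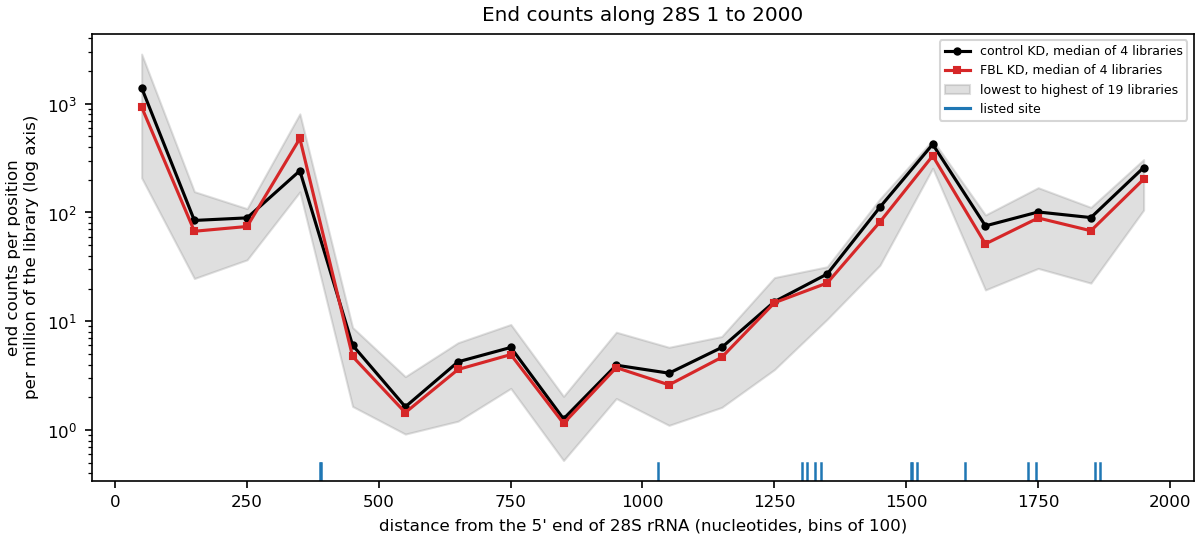
End counts along 28S rRNA 1 to 2000 in bins of 100 nucleotides, as counts per position for each 1000000 of the library on a log axis. Black and red lines are medians of 4 control KD and 4 FBL KD libraries, the grey band spans all 19 libraries and blue ticks mark the 15 listed sites. The control median is between 1.27 and 6.03 in the 8 thin bins.

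In the 9 libraries with intact FBL (4 control KD and 5 of the SNORD127 set), most listed sites were close to fully protected. The medians were 0.943 or more at 10 sites, with 28S-Gm1612 highest at 0.993. 28S-Gm1303 had a median of 0.860 and 28S-1029 of 0.831. 28S-1731, whose listed guide SNORA52 belongs to the box H/ACA class that directs pseudouridylation, had 0.745. 28S-Cm1868 had 0.696 with a range of 0.627 to 0.789. 28S-1339 had a score of 0 in all 9, because its end counts exceeded those of its flanks. Neighbours in this order overlapped in range among the 10 highest, so their order is not resolved.

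**Figure D2:**
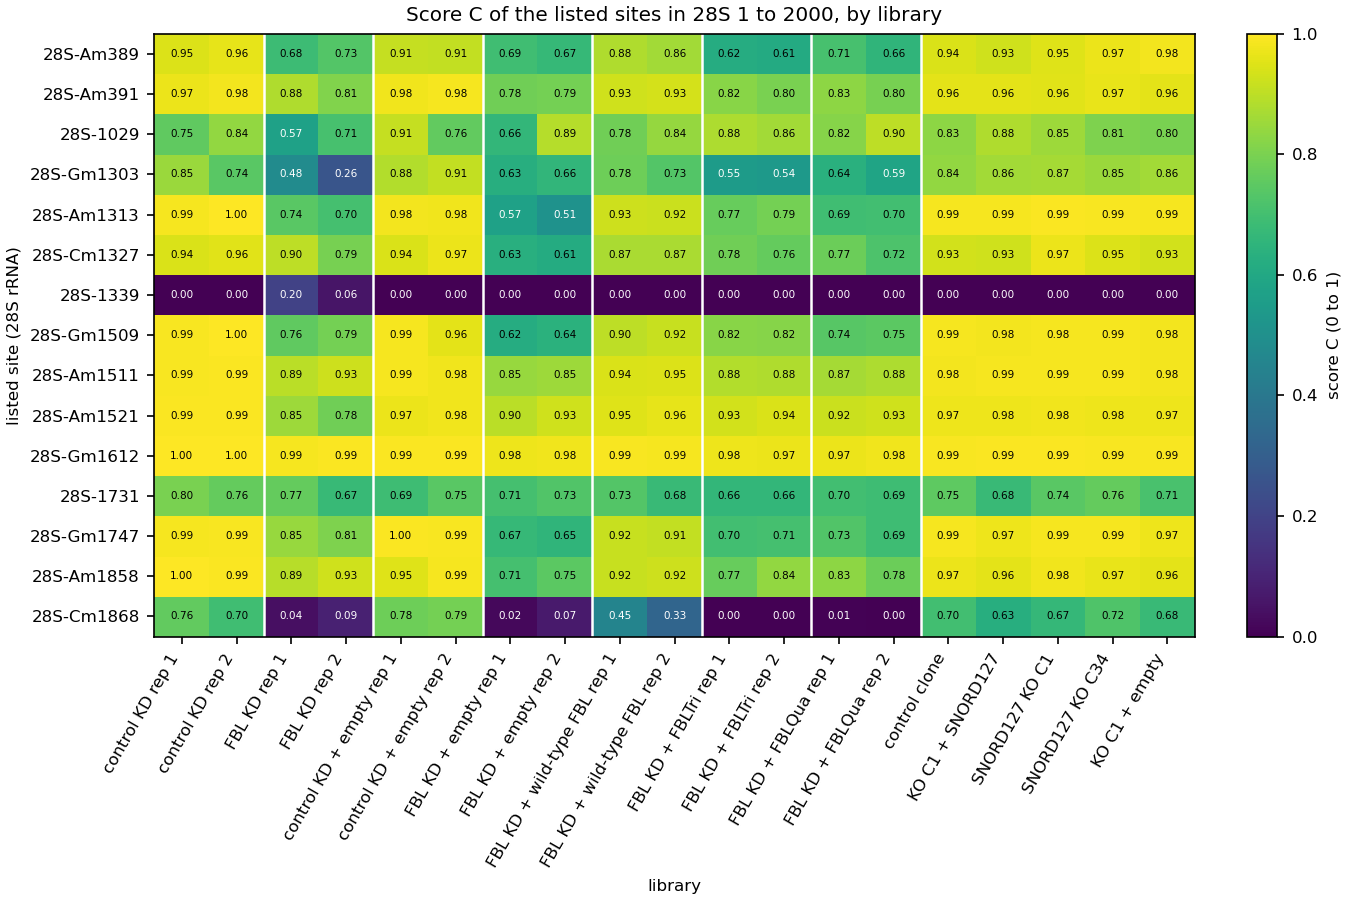
Score C (colour and number, 0 to 1) of the 15 listed sites in each of the 19 libraries, with white lines between the knockdown groups. The rows of 28S-Cm1868 and 28S-Am1313 darken in the FBL KD columns, 28S-Gm1612 has its lowest value at 0.970 and 28S-1339 is at 0 in 17 libraries.

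The comparison of FBL KD with control KD asks how each site responds to a smaller supply of the enzyme. Over both backgrounds 12 of the 15 sites fell and 1 was called higher at an adjusted p under 0.05 (limma over the 120 listed sites). Over all 120, 71.7% were called lower and 1.67% higher. The median change in score was -0.164 in the stretch and -0.0853 over all 120. All 12 sites with a named SNORD guide fell, by 0.011 to 0.699, and none of the 3 others was called lower with all libraries in the fit. With library medians made equal, by subtracting each library's median score, the split of the 15 was 9 lower and 3 higher. Over all 120 it was then 32.5% lower and 47.5% higher. The median change over all 120 turned to 0.0328, so calls at this setting are relative to that shift. The 4 FBL KD libraries lay below the 4 control KD libraries at 11 of the 15 sites, 73.3%, against 59.2% over all 120.

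28S-Cm1868, the site of SNORD48, lost the most score. It stood at 0.759 and 0.695 in control KD and at 0.041 and 0.090 in FBL KD. With the empty vector it was 0.781 and 0.789 against 0.022 and 0.074. No FBL KD library came near a control library, and end counts at the site were 91.0% to 97.8% of those of the flanks in FBL KD. The change was -0.699 ± 0.028 (SE; adjusted p = 5.23e-08, limma).

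Sites of guides from ribosomal protein genes fell by very different amounts. At 28S-Am1313, the site of the SNORD18 guides, scores were 0.985 and 0.997 in control KD against 0.744 and 0.704 in FBL KD, and 0.984 and 0.980 against 0.571 and 0.510 with the empty vector. The groups did not overlap, and the change was -0.354 ± 0.015 (SE; adjusted p = 5.23e-08, limma). 28S-Gm1303, the site of SNORD21, went from 0.848 and 0.745 to 0.481 and 0.263, and with the empty vector from 0.885 and 0.908 to 0.628 and 0.659. It varied more between replicates than 28S-Am1313 and changed by -0.338 ± 0.045 (SE; adjusted p = 1.09e-04, limma). 28S-Gm1747, the site of SNORD73A, went from 0.987 and 0.9898 to 0.847 and 0.806, and with the empty vector from 0.995 and 0.988 to 0.669 and 0.654. It changed by -0.246 overall. 28S-Am1511, the site of SNORD32A, SNORD32B and SNORD51, fell by 0.107. 28S-Gm1509, the site of SNORD2 from the translation initiation factor gene EIF4A2, fell by 0.282. Listed apart from these groups, 28S-Am1858 fell by 0.164.

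Among the sites of noncoding host genes, the 3 of GAS5 all fell, by 0.162 at 28S-Am391, 0.118 at 28S-Am1521 and 0.011 at 28S-Gm1612. 28S-Gm1612 had 0.997 and 0.997 in control KD, 0.988 and 0.994 in FBL KD, 0.993 and 0.993 in control KD with empty vector and 0.976 and 0.979 in FBL KD with it. Its score thus stayed near the top of the range. Its 4 FBL KD libraries overlapped with the controls when the backgrounds were pooled, but lay below them within each background. 28S-Am389, guided by SNORD26 of SNHG1, fell by 0.237 and 28S-Cm1327, guided by SNORD104 of SNHG25, by 0.219. By base, all 6 Am, 2 Cm and 4 Gm sites fell.

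With library medians made equal, the direction turned at 28S-Am1511, 28S-Am1521 and 28S-Gm1612, where the changes became 0.011, 0.000399 and 0.107. Only that of 28S-Gm1612 was then called by limma (adjusted p = 3.65e-08).

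None of the 3 sites without a named SNORD guide was called lower with all libraries in the fit. 28S-1029 had 0.754, 0.838, 0.912 and 0.758 in the 4 control KD libraries and 0.570, 0.710, 0.663 and 0.890 in the 4 FBL KD libraries. The groups overlapped, and at flanking counts down to 10.3 a change of -0.107 ± 0.058 (SE) was not detectable as such (adjusted p = 0.127, limma). Without FBL KD with empty vector replicate 2 the change was -0.164 and was called (adjusted p = 0.0215, limma). 28S-1731 changed by -0.031 ± 0.024 (SE; adjusted p = 0.262, limma). Without FBL KD replicate 1 it changed by -0.0536 and was called lower (adjusted p = 0.0464, limma), and with library medians made equal it was called higher by 0.0876 (adjusted p = 0.00931, limma). 28S-1339 had scores above 0 in 2 libraries only, 0.196 and 0.055, both FBL KD without re-expression. The call higher there (0.063, adjusted p = 0.0443, limma) was lost on the compared groups alone (adjusted p = 0.12) and when any of 6 of the 8 libraries was left out, at 0.0875 to 0.0962. These were the 4 control KD libraries and the 2 FBL KD libraries with empty vector. By edgeR its relative end count was lower among the 120 sites (adjusted p = 0.0159) and did not pass over all positions (adjusted p = 0.22). Before negative values were set to 0, its scores ran from -1.49 to 0.196.

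The order of the sites was different on the scale of end counts. In an edgeR fit of the end count relative to its flanks, over 5533 rRNA positions with a mean flanking count of at least 50, the relative end count rose at all 12 sites with a named guide (adjusted p = 2.19e-07 to 0.0106). It rose 26.4-fold at 28S-Gm1747, 24.8-fold at 28S-Am1313 and 22.0-fold at 28S-Gm1509. 28S-Am1858 rose 16.4-fold, on control KD counts of 1, 1, 32 and 8. The lowest control KD count was also 1 at 28S-Am1313, and 2 at 28S-Am391, 28S-Cm1327 and 28S-Gm1612. It was 3 at 28S-Am1521 and 4 at 28S-Am389 and 28S-Gm1509, so folds and their order rest partly on few counts. The 28S-Am1511, 28S-Am1521 and 28S-Am391 sites rose 10.02-fold, 9.22-fold and 7.91-fold. 28S-Cm1868, with the largest loss of score, rose 3.91-fold, since its relative end count was already 21.1% to 30.5% in control KD. 28S-Gm1612, with the smallest, rose 3.39-fold (log2 change 1.76 ± 0.30 SE, adjusted p = 0.0106, edgeR), from 0.275% to 0.687% in the control KD libraries to 0.595% to 2.43% in the FBL KD libraries. The remaining 3 sites with a named guide, 28S-Cm1327, 28S-Am389 and 28S-Gm1303, rose 4.74-fold, 4.60-fold and 3.27-fold.

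**Figure D3:**
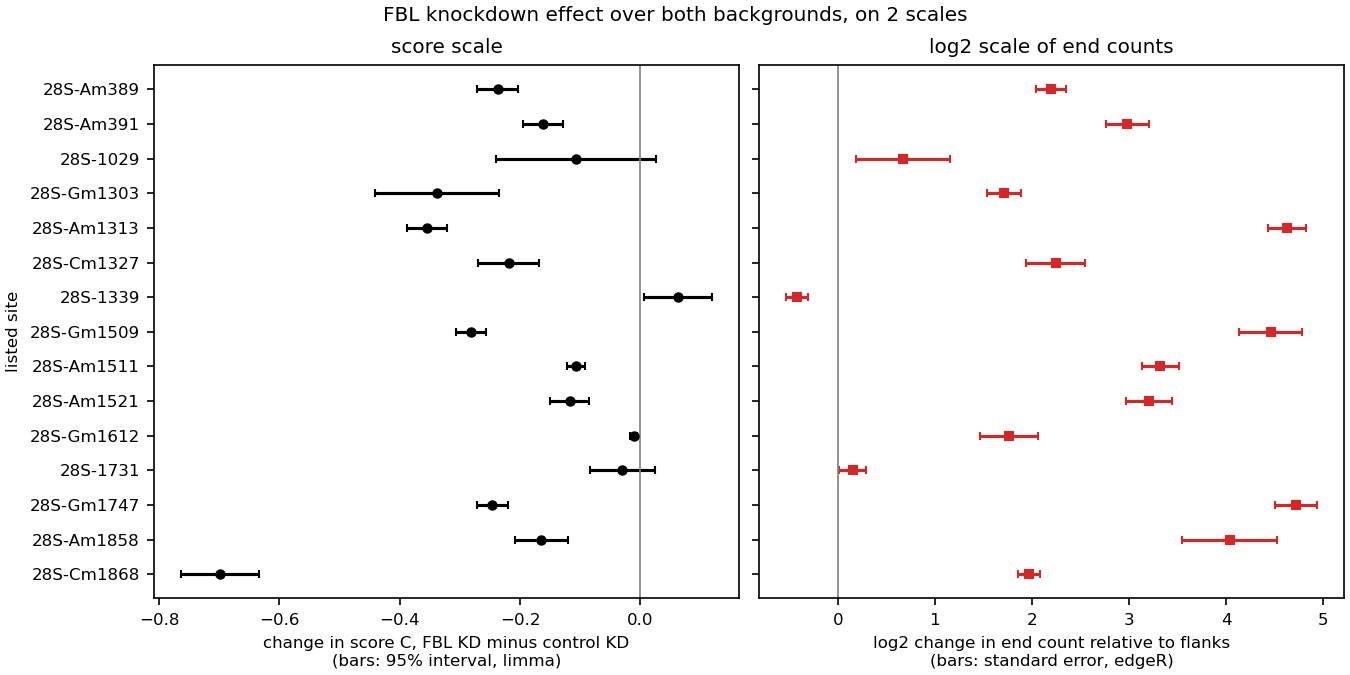
Effect of FBL KD over both backgrounds at the 15 listed sites, as the change in score C with its 95% interval (left, limma) and as the log2 change in end count relative to the flanks with its standard error (right, edgeR). 28S-Cm1868 is farthest from 0 on the left at -0.699, and 28S-Gm1747 on the right at 4.72.

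The same edgeR fit compared listed with unlisted positions. It called 70 of the 5533 positions, 1.27%. In the stretch 12 of the 15 listed sites were called, all with more ends in FBL KD, against 0 of 1354 unlisted positions, of which 102 had an unadjusted p under 0.05. Of the 105 listed sites elsewhere in rRNA, 57 were called, 54.3%. The unlisted position with the smallest p was 28S-1475, chosen here for that (log2 change 0.47 ± 0.10 SE, adjusted p = 0.0603, edgeR). Other tools called few of the 1354: DESeq2 6, limma on log2 ratios 1, and edgeR with TMM scaling and no flank offset 0. Over all unlisted rRNA positions the called share moved as well, and at its highest it was close to that of the stretch. In the stretch the count rests on the control libraries. It was 442 without control KD with empty vector replicate 1, 26 without control KD replicate 2 and 5 without control KD with empty vector replicate 2, whose position 15 alone took 20.8% of its counts, and 2 without FBL KD replicate 1. At the first 3 of these settings 12 of the 15 listed sites were called with more ends, and at the last 10.

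By background, the edgeR fit called 10 of 15 listed sites without re-expression (1.16% of all positions called) and 12 of 15 with the empty vector (1.12%). Of the 105 listed sites elsewhere in rRNA it called 43 (41.0%) and 49 (46.7%). Of the 1354 unlisted positions it called 5 and 0, with 138 and 114 at an unadjusted p under 0.05.

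Many unlisted positions had high scores too. With the score computed as for the listed sites, 56 of the 1354 unlisted positions, 4.14%, had at least 0.8 in all 9 libraries with intact FBL, as did 10 of the 15 listed sites. Over all rRNA it was 170 of 5413, 3.14%. The 8 with the highest mean were, in order, 28S-224, 28S-20, 28S-223, 28S-19, 28S-225, 28S-222, 28S-1154 and 28S-1590, from 0.997 down to 0.968. The positions 19 and 20, and 222 to 225, are neighbours. Of the 56, 0 were called in FBL KD by edgeR and 4 had an unadjusted p under 0.05. Their scores changed by a median of -0.000198, from -0.103 to 0.062. At 28S-224, scores ran from 0.996 to 0.998 in control KD and from 0.994 to 1 in FBL KD, so the ranges overlapped.

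**Figure D4:**
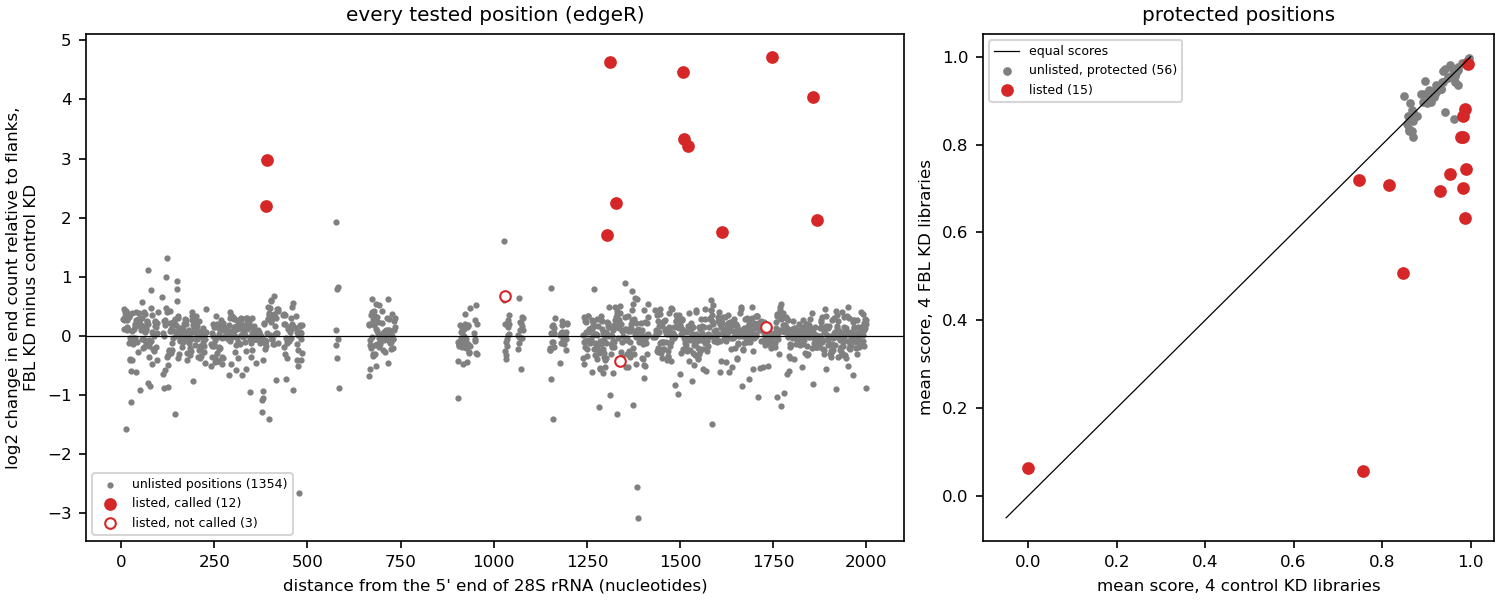
Left, log2 change in end count relative to flanks (FBL KD minus control KD, edgeR) at each tested position of the stretch, with 1354 unlisted positions in grey and the 15 listed in red (filled where called). Right, mean score in 4 FBL KD against 4 control KD libraries for 56 unlisted protected positions and the listed sites, with the line of equal scores. The 12 called sites lie above 1.7 on the left, and the grey points follow the line on the right.

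The effect of the knockdown was compared between cells without re-expression and cells with the empty vector. Without re-expression 11 of 15 sites fell and 1 was called higher (limma, 59.2% of all 120 called lower), and with the empty vector 12 fell (67.5%). With library medians made equal, 7 were lower and 2 higher without re-expression (23.3% and 42.5% of all 120). With the empty vector it was 8 lower and 4 higher (28.3% and 46.7%). Without re-expression the call was lost when 1 of 3 libraries was left out at 28S-Cm1327 (adjusted p = 0.0546 to 0.101, limma: control KD replicates 1 and 2 and FBL KD replicate 2) and at 28S-Am1858 (0.0764 to 0.13: both control KD replicates and FBL KD replicate 1). With the empty vector this held for 28S-Am1521 (0.067 to 0.156: both control KD replicates and FBL KD replicate 1). The difference between the 2 effects was called at 7 sites (limma, 30% of all 120), and at 4 without control KD replicate 1 or replicate 2. Leaving out 1 of 5 libraries ended the call at 28S-Am1511 (adjusted p = 0.0571 to 0.0882, limma) and at 28S-Am1858 (0.051 to 0.0629), and 1 of 3 that at 28S-Am1521 (0.0566 to 0.0636). Calls were gained at 28S-1339 without either FBL KD replicate, at 28S-Gm1303 without FBL KD replicate 1 (adjusted p = 0.00773, limma) and at 28S-Am391 without FBL KD replicate 2 (0.0101). It went to a deeper loss with the empty vector at 28S-Am1313, 28S-Cm1327, 28S-Gm1509, 28S-Am1511, 28S-Gm1747 and 28S-Am1858, and to a shallower one at 28S-Am1521. 28S-Cm1327 differed most: it had 0.8999 and 0.793 in FBL KD and 0.629 and 0.614 in FBL KD with empty vector, while the 4 control libraries ran from 0.943 to 0.971. On end counts, 2 of these 7 differences were called by edgeR, with 2.5% of all 120 called in each direction. They were 28S-Gm1747 (log2 difference 1.68, adjusted p = 0.0361, edgeR) and 28S-Am1521 (-2.87, adjusted p = 0.00802, edgeR). At 28S-Am1313 the log2 rise was 4.59 without and 4.66 with the empty vector. The libraries without re-expression were also the shallow ones. Column names of their FBL KD libraries carry other numbers after the FBL hairpin name than those with the vector. Whether these numbers stand for hairpins or for replicates is not stated. Vector, depth and a possible difference of hairpin cannot be told apart here.

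Re-expression of wild-type FBL asks how far the loss can be undone. Against the empty vector 10 of the 15 sites rose (limma, 57.5% of all 120) with a median change of 0.143 in the stretch and 0.0533 over all 120. With library medians made equal it was 7 higher and 3 lower. The share over all 120 is not given at this setting, so the split does not set the stretch apart. 28S-Am1313 rose from 0.571 and 0.510 to 0.925 and 0.919. 28S-Gm1509 rose from 0.619 and 0.640 to 0.899 and 0.916, and 28S-Gm1747 from 0.669 and 0.654 to 0.915 and 0.907. At none of these 3 did the groups overlap, yet the wild-type libraries remained below control KD with empty vector. 28S-Cm1868 rose from 0.022 and 0.074 to 0.450 and 0.328, far from the 0.781 and 0.789 of control KD.

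Taken as a share of the gap between control KD and FBL KD with empty vector, the wild-type change was 44.3% to 86.4% over the 12 sites with a named guide, with a median of 74.4%. It was above 50% at 10 of them. The exceptions were 28S-Gm1303 at 44.3% and 28S-Cm1868 at 46.2%, and 28S-Am1313 had the most. These shares depend on the empty-vector groups. Shares set against FBL KD without re-expression, where the loss differed at some sites, were not computed. The change at 28S-Gm1303 (0.112, adjusted p = 0.169) and 28S-Am1521 (0.044, adjusted p = 0.0994) did not pass by limma. By edgeR on end counts 28S-Am1521 passed as well (adjusted p = 0.00622). The small rise of 0.011 at 28S-Gm1612 lost its call without either empty-vector library or wild-type replicate 1 (adjusted p = 0.0533 to 0.144, limma). Over all rRNA positions edgeR called 7 of the 15 listed sites, all with fewer ends (0.56% of all positions called), and 0 of the 1354 unlisted positions, of which 3 had an unadjusted p under 0.05. Of the 105 listed sites elsewhere in rRNA it called 23, 21.9%.

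Wild-type re-expression was also compared with control KD with empty vector. By limma 4 sites were lower (29.2% of all 120), namely 28S-Cm1868 by 0.396, 28S-Gm1747 by 0.081, 28S-Gm1509 by 0.064 and 28S-Am1511 by 0.037. By edgeR on end counts 10 sites were short of control. The share over all 120 is not given for this fit, so the count does not set the stretch apart. At 28S-Gm1747 the log2 end count was 3.64 above that of control KD (adjusted p = 1.78e-06, edgeR), although the scores differed by under 0.1. Without control KD with empty vector replicate 1, or without wild-type FBL replicate 1, limma called 2 sites, and 28S-Gm1509 and 28S-Am1511 lost their calls. With library medians equal it called 1 lower and 1 higher, and the share over all 120 is not given there either.

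**Figure D5:**
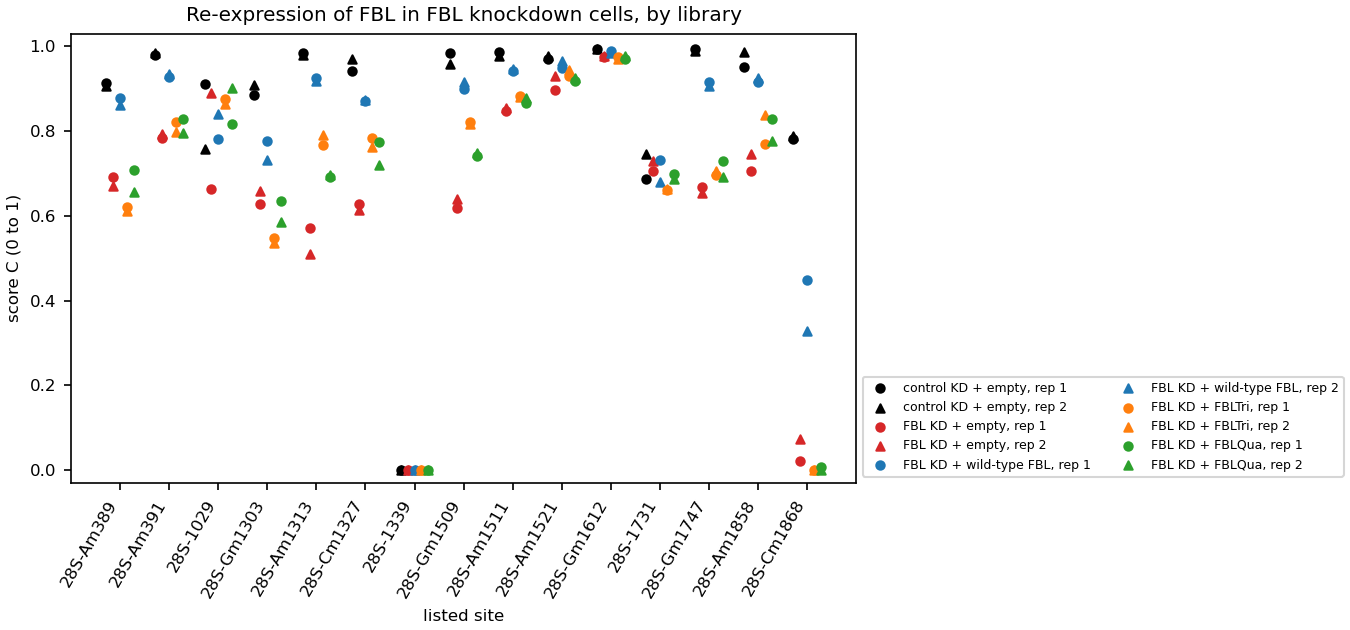
Score C (0 to 1) of the 15 listed sites in each library of 5 groups: control KD with empty vector (black) and FBL KD with empty vector (red), wild-type FBL (blue), FBLTri (orange) or FBLQua (green). Circles and triangles are replicates 1 and 2. Blue points lie between red and black at the sites with a named guide, and at 28S-Cm1868 at 0.450 and 0.328.

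FBLTri and FBLQua are mutant forms of FBL. The titles of these libraries conflict with their column names, where FBLTri is Dual and FBLQua is Tri, so the values below rest on the titles. Against wild-type FBL, 11 sites were lower with FBLTri (limma, 62.5% of all 120) and 10 with FBLQua (59.2%). Both comparisons share the wild-type libraries. At 28S-Cm1868 the score was 0 and 0 with FBLTri and 0.008 and 0 with FBLQua, which is below both FBL KD libraries with empty vector. At 28S-Am389 it was 0.620 and 0.612 with FBLTri and 0.709 and 0.655 with FBLQua, against 0.879 and 0.863 with wild-type FBL. With library medians equal, FBLTri gave 3 sites lower and 3 higher, and FBLQua 5 and 3. Shares over all 120 are not given for these splits, so they do not set the stretch apart. Leaving out 1 library ended the FBLTri calls at 28S-Gm1303 (adjusted p = 0.0562 to 0.0826, limma: wild-type replicate 1 and both FBLTri libraries) and 28S-Cm1327 (0.0549 to 0.106: each of the 4 libraries). It ended the FBLQua calls at 28S-Cm1327 (0.0613: FBLQua replicate 2) and 28S-Gm1612 (0.0556 to 0.0645: wild-type replicate 1 and FBLQua replicate 1).

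Set against the empty vector, the mutant forms gave small changes in score at most sites. With FBLTri 4 sites were higher (limma, 16.7% of all 120) and 1 lower (20% of all 120), 28S-Am389 by 0.065. With FBLQua 3 were higher (7.5%) and 0 lower (11.7%). The sites common to both were 28S-Am1313, which had 0.768 and 0.791 with FBLTri and 0.693 and 0.696 with FBLQua, 28S-Gm1509, with 0.822 and 0.817 and with 0.741 and 0.749, and 28S-Cm1327, with 0.784 and 0.764 and with 0.774 and 0.721. All of these lay above both FBL KD libraries with empty vector and below both wild-type libraries. Means in FBL KD without re-expression were 0.724 at 28S-Am1313, 0.774 at 28S-Gm1509 and 0.847 at 28S-Cm1327. The FBLQua libraries lay below these means at each of the sites, and the FBLTri libraries only at 28S-Cm1327. This difference was not tested. The fourth site with FBLTri, 28S-Am1511, rose by 0.032. The FBLTri calls at 28S-Am1511 and 28S-Am389 were lost when any of the 4 libraries was left out (adjusted p = 0.0709 to 0.149 and 0.0859 to 0.207, limma). The one at 28S-Am389 was also lost with the replicate block (adjusted p = 0.056, limma). Before negative scores were set to 0, FBLTri also gave 28S-Cm1868 lower (-0.187, adjusted p = 0.0314, limma) and 28S-Am1858 higher (0.0771, adjusted p = 0.0439, limma). On the compared groups alone FBLTri gave 28S-Gm1303 lower (-0.101, adjusted p = 0.0398, limma). Without FBLTri replicate 1, 28S-Am1858 was called higher (0.112, adjusted p = 0.0247, limma), and without FBLQua replicate 2, 28S-Gm1747 was (0.0671, adjusted p = 0.0316, limma). The FBLQua call at 28S-Cm1327 was lost without either empty-vector library or FBLQua replicate 1 (0.0731 to 0.16). As a share of the gap the median over the 12 sites was 18.2% with FBLTri and 14.5% with FBLQua. The share varied by site, from -40.1% to 55.6% with FBLTri and from -20.0% to 37.6% with FBLQua. It was above 50% at 2 sites with FBLTri, 28S-Am1313 and 28S-Gm1509, and at 0 with FBLQua. On end counts edgeR called 1 site with FBLTri, 28S-Am1313 (log2 change -1.06, adjusted p = 0.00455), and 0 with FBLQua, where 6 sites had an unadjusted p under 0.05 by limma. The shares over all 120 are not given for these edgeR counts, which do not set the stretch apart.

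Between the forms, 28S-Am1313 was higher by 0.085 and 28S-Gm1509 by 0.075 with FBLTri than with FBLQua (limma, adjusted p = 0.0411 and 0.0216, 8.33% of all 120 called in either direction). These calls were lost when any of the 4 libraries was left out (0.109 to 0.196 and 0.0686 to 0.125) and on the logit scale.

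Loss of SNORD127, whose target lies in 18S rRNA, served here as a comparison in which FBL was left intact. Limma called 0 of the 15 sites (0.833% of all 120 in either direction), 0 had an unadjusted p under 0.05, and edgeR called 0. Changes ran from -0.035 to 0.031 with a median 95% half-width of 0.0414. The spread behind these tests came mostly from the knockdown groups, since only clones C1 and C34 shared a SNORD127 group. Clone C1 also gave the libraries with SNORD127 and with the empty vector, so this was not a replicated comparison of clones. 28S-Cm1868 changed by 0.029 ± 0.037 (SE), and its 5 values ran from 0.627 in clone C1 with SNORD127 to 0.724 in clone C34.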

How the data were processed

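Total RNA of 19 libraries was hydrolysed and sequenced. The authors deposited end counts per rRNA position, which are whole numbers and not normalized, and, for 120 sites, a methylation score (score C) given as a fraction between 0 and 1. Per the submitters' processing notes, cutadapt and Bowtie2 were used. Their versions and settings, and the reference build, are not given in the sources used. Score C recomputed from 6 flanking positions on either side, with weights of 1 falling to 0.5 and the count read 1 position after the site, equalled the deposited value in 2280 of 2280 pairs within 1e-09. Negative scores are deposited as 0. Depth is given by the flanking counts. Poisson intervals at 95% and reads without molecular identifiers cover counting error only.

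Groups came from sample titles. Scores of all 120 sites were fitted with limma 3.58.1 (variance trend, a coefficient per group) in R 4.3.3, on the 14 knockdown libraries or, for SNORD127, all 19. End counts were fitted with edgeR 4.0.16 (quasi-likelihood, log flank mean as offset). Benjamini-Hochberg adjustment ran over all features at 0.05, and tests were two-sided. Folds for FBL KD over both backgrounds come from the fit over all positions, and other end count changes and their adjusted p from one over the 120 sites. Both tests were tested on simulated data. DESeq2 1.42.0 and other settings were alternatives. Python 3.11.15 was used.

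All listed sites are described. Unlisted positions were named as up to 8 called ones with the largest change (none qualified) and the 8 best protected. The positions, lists and tests were chosen with earlier results of these data known. Fits of each background over all positions, and of wild-type FBL against the empty vector, were added after seeing the data. Host genes come from the GRCh38.p14 RefSeq table, and the one for 28S-Am1858 is not reported here. The base in each site name comes from background knowledge. No 28S sequence was used here.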

Additional observations from a re-analysis of the deposited data

Results flagged for a closer look

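At 7 sites the effect of FBL KD on score C differed between cells with the empty vector and cells without re-expression, by limma's test of the difference itself. The difference in score was -0.175 at 28S-Am1313, -0.233 at 28S-Cm1327, -0.122 at 28S-Gm1509, -0.048 at 28S-Am1511, 0.114 at 28S-Am1521, -0.168 at 28S-Gm1747 and -0.157 at 28S-Am1858. The sign is negative where the loss was deeper with the empty vector. On end counts 2 of the 7 were called by edgeR, 28S-Am1521 and 28S-Gm1747 (2.5% of all 120 in each direction). At 28S-Gm1509 the direction turned on the logit scale (0.214) and on end counts (log2 difference -1.48), and neither was called. On the score scale the call was lost at 28S-Am1511 without either control KD replicate, control KD with empty vector replicate 1 or either FBL KD library with empty vector (adjusted p = 0.0571 to 0.0882, limma). It was lost at 28S-Am1858 without either control KD replicate, FBL KD replicate 2, control KD with empty vector replicate 2 or FBL KD with empty vector replicate 1 (0.051 to 0.0629). At 28S-Am1521 it was lost without either control KD replicate or FBL KD with empty vector replicate 2 (0.0566 to 0.0636). On the compared groups alone it was lost at 28S-Am1511 (adjusted p = 0.0935, limma) and 28S-Am1521 (0.0762). No single library ended the call at the other 4 sites.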

How the results depend on the processing

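Over the alternatives, 1086 of the called site values kept direction and call, 130 kept direction and lost the call, and 21 reversed. With library medians equal, 28S-Am1511 turned to 0.0113, 0.0158 and 0.00679 in FBL KD (both backgrounds, without re-expression, with empty vector), -0.00216 in wild-type FBL minus empty vector, 0.00464 against control KD, and 0.0351 and 0.02995 in FBLTri and FBLQua minus wild-type FBL. 28S-Gm1612 turned to 0.107 and 0.122 in FBL KD (both backgrounds, with empty vector), -0.085 with wild-type FBL, and 0.0825 and 0.0875 for the mutant forms. 28S-Am1521 turned to 0.000399 and 0.0769 (both backgrounds, with empty vector), 28S-Am1858 to 0.0128 (without re-expression) and 28S-Gm1509 to 0.00926 (FBLTri). In the difference between the backgrounds, 28S-Gm1509 turned to 0.214 (logit) and -1.48 (log2 end count, edgeR), 28S-Am1511 to 0.00365 and -0.62, and 28S-Am1858 to -1.77 (edgeR). The cause was not tested.

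Calls with library medians equal are relative to the shift of the medians. With library medians equal, sites lower were 7 in FBL KD without re-expression, 1 in wild-type FBL minus control KD, and 3 and 5 in FBLTri and FBLQua minus wild-type FBL. In wild-type FBL minus control KD they were 7 on the compared groups alone, 9 on the logit scale, 7 with flanks of 2 positions and 10 by edgeR. The difference between backgrounds was called at 4 sites on the logit scale and 2 by edgeR. FBLTri minus empty vector gave 1 higher site on the logit scale and 1 by edgeR, and FBLQua minus empty vector 0 on the compared groups alone, on the logit scale and by edgeR. FBLTri minus FBLQua gave 0, 0 and 0 there and 1 with library medians equal. Unlisted positions called were 1 at a flanking count of at least 500, 4 with flanks of 2 positions, 1 by limma and 6 by DESeq2.

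Leaving out each library in turn gave 12 to 13 sites lower in FBL KD over both backgrounds, 9 to 11 without re-expression and 11 to 12 with empty vector. It gave 4 to 9 for the difference between backgrounds, 9 to 10 higher with wild-type FBL, 2 to 4 lower against control KD, 9 to 10 lower for FBLTri and 9 to 10 for FBLQua against wild-type FBL. Against the empty vector it gave 3 to 4 and 2 to 4 higher, between the forms 0 to 0, for SNORD127 0 to 0, and 0 to 442 unlisted positions. The share of end counts differed by -10.98 to -3.77 percentage points. A lone library left in a group is assumed to vary like the other groups.

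Whether the replicate numbers pair the samples cannot be told from these values. Over 21 pairs of groups the correlation of same-numbered deviations was -0.226 to 0.694 with a median of 0.159, and above 0.1 in 12. With the replicate block, FBLTri minus FBLQua gave 1 site (28S-Am1313 was lost, adjusted p = 0.0531, limma) and unlisted positions 1, and the lower call at 28S-Am389 in FBLTri minus empty vector was lost (0.056). Depth limits 28S-1029 and the thinly counted bins around it most.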
